A study of Caenorhabditis elegans with 24 samples.

Results

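The glutathione S-transferase genes of Caenorhabditis elegans were examined across 6 genotypes. They were taken as all genes whose name in the WBcel235 annotation begins with gst-, gstk- or gsto-, which gave 47 of the 20549 genes with values. Of these, 42 were named gst-, 3 gsto- and 2 gstk-. The wild-type background had values for all 47 and the daf-2 background for 46, gst-18 not being analysed there.

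RNA was measured in 24 libraries of whole worms on the first day of young adulthood, with 4 libraries for each genotype. All animals had been grown at 20 °C on a lawn of Escherichia coli, and the labels give no treatment. The wild-type background held wt (strain N2), bcl-11(bon125) and bcl-11(bon144). The daf-2 background held the e1370 mutant of the insulin/IGF-1 receptor (daf-2) and its double mutants with either allele, daf-2;bcl-11(bon125) and daf-2;bcl-11(bon144), so that all 3 of its groups carried e1370. BCL-11 is a zinc finger transcription factor. Both alleles were made by gene editing and are described as hypomorphic, each encoding an altered protein. In bon125 a frameshift left the C2H2 zinc fingers in place, and bon144 replaced residues of the conserved N-terminal domain. The level of the bcl-11 transcript does not check the labels, since the alleles alter its coding sequence. Each mutant was 1 strain, and an allele cannot be told apart from the line that carries it. The titles give each library a replicate number, and each number was held by 1 library of every genotype. They do not say what same-numbered libraries shared.

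Glutathione S-transferases join the thiol peptide glutathione to electrophilic compounds, among them drugs and the products of lipid peroxidation, and the conjugates are then exported from the cell. Most of the nematode enzymes are cytosolic. The omega enzymes (gsto-) act mainly as thiol oxidoreductases, the kappa enzymes (gstk-) are found in mitochondria and peroxisomes, and zeta enzymes serve the breakdown of tyrosine. Transcription of several members, such as gst-4, depends on SKN-1, the nematode counterpart of the NRF factors, which insulin signalling restrains as it restrains DAF-16.

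Values are regularised log counts (rlog) on the log2 scale, in which a difference of 1 is a doubling. The rlog transformation draws the differences of weak genes towards 0, so that their changes are understated. Sequencing depth is unknown, because the values had already been normalised, and the precision given here is that of 4 libraries. Libraries of bcl-11(bon144) varied most, with a median SD over all tested genes of 0.25, compared to 0.18 for both wt and the bon125 allele. Markers of 6 tissues were checked in each library, and at least 5 genes of each list (intestine, hypodermis, body wall muscle, neurons, germline and oocytes, sperm) were above the filter on low values given below in both tables. In bcl-11(bon144), the summed level (log2 of the sum of linear levels) of the 5 sperm markers above the filter ran from 6.31 to 9.68, that of the 6 hypodermis markers from 14.75 to 17.38, and that of the 7 germline and oocyte markers from 15.13 to 16.65. In wt the same sums ran from 6.52 to 7.46, from 15.10 to 16.20 and from 16.03 to 16.57. The hypodermis sum follows a single collagen gene, col-19 (mean rlog 16.10 in bcl-11(bon144), other markers at most 8.24). The mean rlog of the 6 hypodermis markers ran from 7.84 to 8.24 in bcl-11(bon144) and from 7.71 to 8.10 in wt. The body wall muscle markers summed to 14.70 in replicate 3 of wt and to 12.92 to 13.37 in its other libraries. In whole animals, fewer cells of a type and less RNA per cell cannot be told apart.

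The members spanned nearly the whole range of expression. A level per transcript length, rlog minus the log2 of the transcript length in kilobases, was used to order the members among themselves. In wt, 6 members lay in the top 10% of all genes by rlog, 16 between the 50th and 90th percentile, and 25 below the 50th percentile. The order of the 47 was led by gst-13 (12.61 rlog per kilobase), followed by gst-7 (12.12), gst-27 (11.97), gst-1 (11.82), gst-4 (11.43) and gst-10 (11.42). The gaps from gst-7 to gst-27, from gst-27 to gst-1 and from gst-4 to gst-10 were smaller than the spread of the wt libraries (SD of 0.14 to 0.30 for these members, n = 4), and these neighbours in the order are therefore not separated. At the other end stood gst-18 (0.19), gsto-2 (1.06) and gst-8 (1.43).

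**Figure D1:**
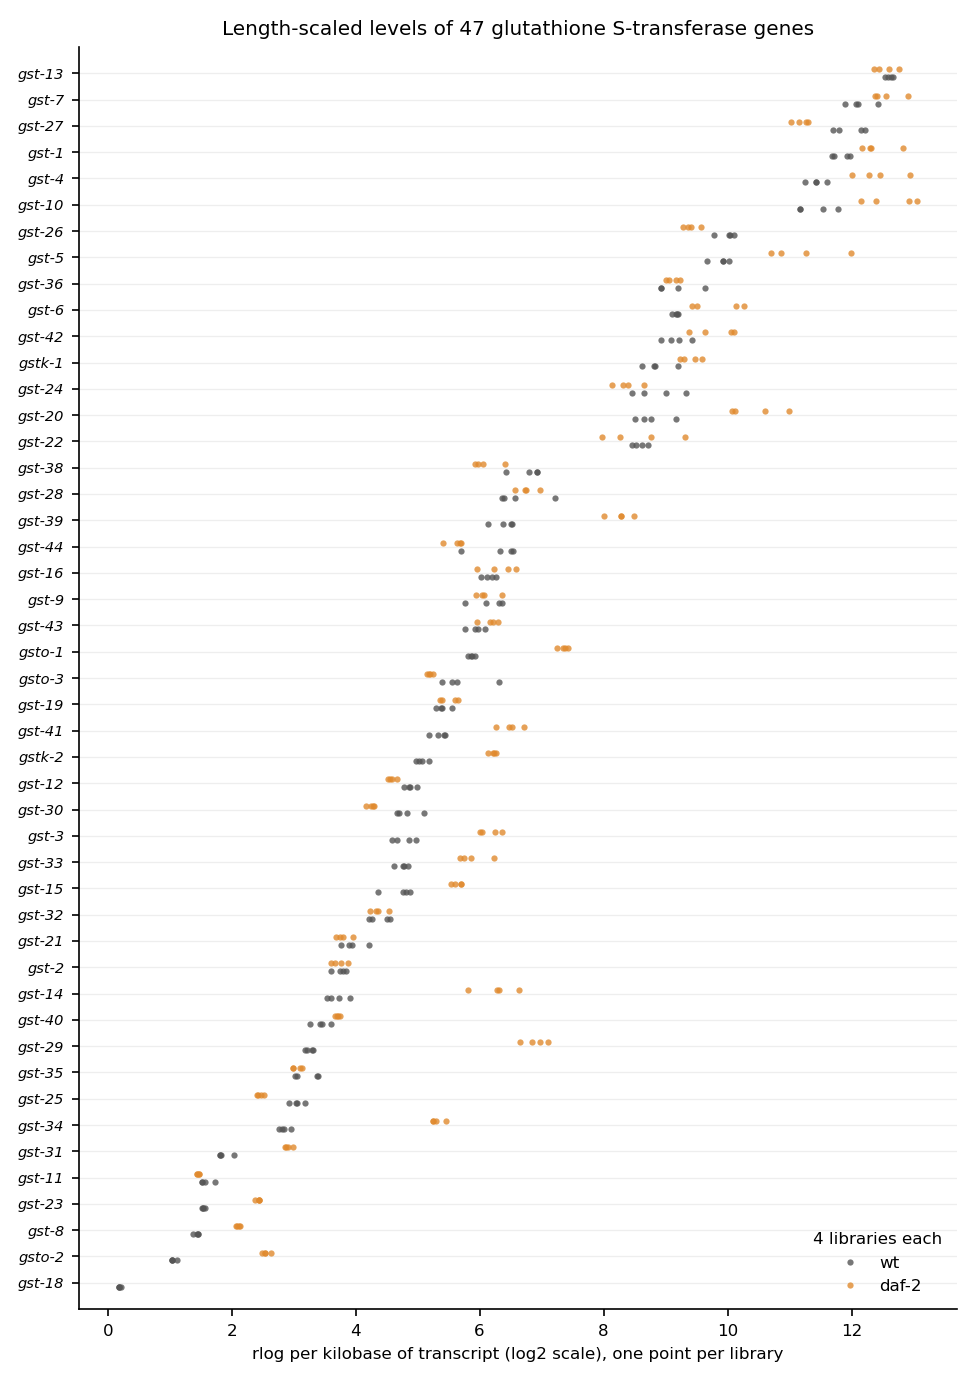
Length-scaled level of each of the 47 members in the 4 wt libraries (grey) and the 4 daf-2 libraries (orange), ordered by the wt mean. The horizontal axis is rlog minus the log2 of transcript length in kilobases, each point is 1 library, and the members run from 0.19 (gst-18) to 12.61 (gst-13) in wt, while both sets of points come from tables normalised separately.

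The members with described roles were distributed over this range. gst-1 is the worm counterpart of the mammalian pi-class enzyme, and its rlog in wt was 11.51, 11.56, 11.30 and 11.27 in replicates 1 to 4. gst-4 (WBGene00001752, chromosome IV, 10142225 to 10143099, plus strand, protein-coding), the usual reporter gene of SKN-1 activity, had values of 10.98, 10.97, 11.15 and 10.80. gst-10, an enzyme that conjugates the lipid peroxidation product 4-hydroxynonenal, had 11.31, 10.70, 11.07 and 10.69. These 3 genes were all among the top 10% of genes in every genotype of both tables. gst-42, which encodes maleylacetoacetate isomerase of the tyrosine pathway, was at 9.17 rlog per kilobase in wt, and gst-43, its zeta-class relative, at 5.94. The kappa gene gstk-1 was at 8.87 and gstk-2 at 5.06. Of the omega genes, gsto-1 was at 5.87 and gsto-3 at 5.72, whereas gsto-2 was near the lower end.

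Low values were filtered by the mean rlog of each table's 12 libraries, which had to reach 3. In the wild-type background 37 members passed, in the daf-2 background 39, and in both 37. Below it in both tables were gst-8, gst-11, gst-23, gst-25, gst-31, gst-35 and gsto-2. gst-29 and gst-34 passed only in the daf-2 table, and gst-18 was below the filter in the wild-type table. Members below the filter varied little within a genotype, as rlog does for weak genes. gsto-2, for example, had values of 0.81, 0.81, 0.88 and 0.81 in wt.

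To ask whether the family differs between the insulin receptor mutant and wild type, daf-2 was set beside wt. The 2 tables were normalised separately, so background and table cannot be told apart, and no test was made. Of the 37 members that passed the filter in both, 23 had a higher mean rlog in daf-2 and 14 a lower one, with a median difference of 0.22, compared to 0.03 over all 13131 genes kept in both. A difference above 1 was seen for 10 of the 37 members, whereas 10.4% of all genes had one. A difference below -1 was seen for 0 members and 2.45% of all genes. The corresponding counts were 11 members above 1 (11.6% of all genes) and 0 below -1 (2.46%) for daf-2;bcl-11(bon125) beside bcl-11(bon125), and 11 (10.5%) and 0 (2.58%) for daf-2;bcl-11(bon144) beside bcl-11(bon144). In the comparison of the 4 daf-2 libraries with the 4 wt libraries, 16 members were higher without overlap (26.4% of all genes) and 6 were lower without overlap (15.5%). Over all 12 libraries of each background, 12 members were higher (16.9%) and 3 lower (5.34%) without overlap.

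Among the members above the filter in both tables, the 5 highest in daf-2 relative to wt were gst-14, gst-39, gst-20, gsto-1 and gst-3. gst-14 (WBGene00001762, chromosome II, 13614781 to 13616100, minus strand, protein-coding) had an rlog of 3.09, 3.22, 3.41 and 3.03 in wt and of 5.32, 5.81, 5.78 and 6.14 in daf-2, a difference of 2.57. It was close to the filter in wt and in the middle of all genes in daf-2, at percentile 49.3. gst-39 had 5.86, 6.00, 6.01 and 5.63 in wt and 7.50, 7.77, 7.77 and 7.97 in daf-2, a difference of 1.88. gst-20 had a mean of 8.48 ± 0.28 in wt and 10.16 ± 0.44 in daf-2 (SD, n = 4), a difference of 1.68. For all 3 genes, no library of the daf-2 background overlapped with one of the wild-type background. The omega gene gsto-1, expressed in the intestine, had 5.50, 5.62, 5.55 and 5.56 in wt and 6.93, 7.04, 7.12 and 7.07 in daf-2, a difference of 1.48, and gst-3 differed by 1.39.

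Among the stress reporters and conjugating enzymes, gst-5 and gst-10 were higher in daf-2 by 1.32 and 1.22. gst-5 (WBGene00001753, chromosome II, 10950352 to 10951603, plus strand, protein-coding), another enzyme acting on 4-hydroxynonenal, had values of 9.56, 9.21, 9.47 and 9.47 in wt and 10.24, 10.80, 10.40 and 11.54 in daf-2. gst-4 had 11.55, 12.01, 11.83 and 12.49 in daf-2, a difference of 1.00, and all 12 libraries of the daf-2 background were above the 12 others. gst-1 was higher by 0.58 and gst-7, whose transcript also responds to SKN-1, by 0.44. The kappa genes differed by 0.53 (gstk-1) and 1.15 (gstk-2), and the zeta genes by 0.63 (gst-42) and 0.22 (gst-43). Of these, gst-7, gst-42 and gst-43 overlapped between wt and daf-2.

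Among the same members, the 5 lowest in daf-2 were gst-27 (a difference of -0.78), gst-38 (-0.67), gst-44 (-0.66), gst-26 (-0.58) and gst-30 (-0.58). gst-27, the member with the third highest level in wt, had an rlog of 11.73, 11.27, 11.78 and 11.37 in wt and of 10.73, 10.83, 10.60 and 10.87 in daf-2. gst-26, its neighbour on chromosome II, had 9.57, 9.49, 9.50 and 9.25 in wt and 8.75, 8.87, 8.83 and 9.03 in daf-2. For both genes, and for gst-30, the 12 libraries of each background did not overlap. The most highly expressed member, gst-13, stood at 12.25 ± 0.06 in wt and 12.19 ± 0.18 in daf-2 (SD, n = 4), and the libraries overlapped.

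Among the remaining members above the filter in both tables, some were higher in daf-2, a few were lower and others overlapped. gst-41 had an rlog of 4.80, 4.95, 5.07 and 5.04 in wt and of 6.14, 6.10, 6.33 and 5.89 in daf-2, a difference of 1.15. gst-33 differed by 1.13, gst-15 by 0.93, gst-6 by 0.67 and gst-40 by 0.26, and the wt and daf-2 libraries of each of these genes did not overlap. gst-9, gst-16, gst-19, gst-21, gst-22, gst-24, gst-28, gst-32 and gst-36 overlapped, with differences from -0.48 (gst-24) to 0.15 (gst-16). gsto-3 (-0.52) and gst-12 (-0.30) were lower without overlap. Of the 7 members below the filter in both tables, gst-8, gst-23, gst-31 and gsto-2 had higher values in all 12 libraries of the daf-2 background, by 0.67 to 1.49 between daf-2 and wt, gst-25 had lower ones (-0.59), and gst-11 and gst-35 differed by -0.13 and -0.16. At these levels the value set by a table's own normalisation and shrinkage cannot be told apart from a difference between the genotypes.

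**Figure D2:**
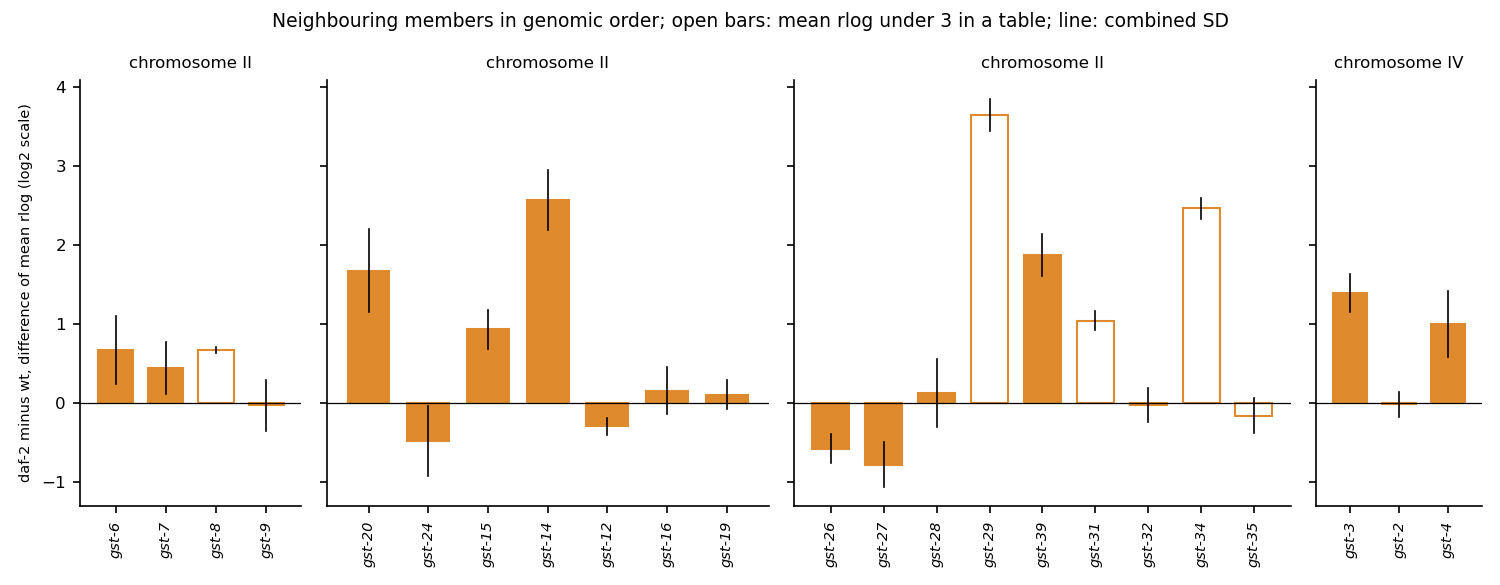
Difference of the mean rlog, daf-2 minus wt (vertical axis, log2 scale), for members that lie within 10000 bases of each other, in genomic order along 3 runs on chromosome II and 1 on chromosome IV. Filled bars are members above the filter in both tables, open bars are members below it in at least 1 table, vertical lines are the combined SD of the 4 and 4 libraries, gst-18 is not drawn, and values run from -0.78 (gst-27) to 3.64 (gst-29).

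Many members lie next to each other. By chromosome, 25 were on II, 8 on V, 5 on IV, 4 on III, 3 on X and 2 on I. Members with at most 10000 bases to the next formed 3 runs on chromosome II, of 4 genes (4879891 to 4893573), 8 genes (13608154 to 13630887) and 9 genes (15163817 to 15185389), and 1 run of 3 genes on chromosome IV (10139380 to 10143099). Neighbours differed widely in level: within the run of 9 genes, the level in wt ran from 1.87 (gst-31) to 11.97 (gst-27) rlog per kilobase. They also differed in the values of daf-2 beside wt.

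In the run of 8 genes, gst-20 and gst-24 are separated by 618 bases and differed by 1.68 and -0.48. gst-14 and gst-12 are separated by 581 bases and differed by 2.57 and -0.30. gst-16 and gst-19 lie further along and differed by 0.15 and 0.10. Strongly and weakly differing genes thus lay side by side.

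In the run of 9 genes, gst-29 (WBGene00001777, chromosome II, 15168538 to 15169861, minus strand, protein-coding) was below the filter in wt, with an rlog of 2.67, 2.69, 2.78 and 2.79, and had 6.13, 6.45, 6.33 and 6.59 in daf-2. This was the largest difference of any member, 3.64, and it was 3.65 between the bon125 groups and 3.62 between the bon144 groups. gst-34, also below the filter in wt (2.31, 2.50, 2.36 and 2.39), had 5.00, 4.79, 4.79 and 4.84 in daf-2, a difference of 2.46. Between them lie gst-39, gst-31 and gst-32, with differences of 1.88, 1.04 and -0.02. gst-29 and gst-34 were named after their values were seen. On chromosome IV, gst-3 and gst-2 are separated by 86 bases, and gst-2 and gst-4, which are transcribed away from each other, by 163 bases. gst-3 and gst-4 differed by 1.39 and 1.00, whereas gst-2 between them differed by -0.02, from 3.95 ± 0.11 to 3.94 ± 0.12 (SD, n = 4).

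Tissue markers also differed between daf-2 and wt. All 7 germline and oocyte markers had a lower mean in daf-2 (median difference -0.49). Of 6 hypodermis markers kept in both, 4 were higher (median 0.57), from -0.98 for the adult collagen gene col-19 to 3.58 for dpy-7, a cuticle collagen gene of the molting larva. Of 6 neuron markers, 5 were higher (median 0.36, from -0.06 for rab-3 to 0.95 for ric-4). Of 6 body wall muscle markers, 3 were higher (median 0.16), from -0.26 (unc-15) to 1.27 (hlh-1). Of 7 intestine markers, 4 were higher (median 0.04), from -1.27 (asp-1) to 1.32 (ges-1), and of 5 sperm markers, 3 (median 0.08), from -0.16 (gsp-4) to 0.78 (spe-11). The part of these differences in those of the members was not tested.

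Next, the bcl-11 single mutants were compared with wt. No member was called, at an adjusted p of limma under 0.05 and a change of more than 1.5-fold, in bcl-11(bon125) (0 of 37 members, 0.0% of all 13459 genes tested) or in bcl-11(bon144) (0 of 37, 0.0669%). In bcl-11(bon125), 0 members had an unadjusted p under 0.05 (1.55% of all genes), the changes ran from -0.20 to 0.25 on the log2 scale, and the smallest adjusted p was 1.00. The 95% interval of the change lay within a change of 1.5-fold in either direction for 35 of the 37 members, compared to 77.2% of all genes. In bcl-11(bon144), 3 members had an unadjusted p under 0.05 (7.1% of all genes), the changes ran from -0.38 to 0.40, and the smallest adjusted p was 0.535. The interval lay within 1.5-fold for 30 of 37 members (70.7% of all genes), and for 16 without replicate 4 and 20 without replicate 3. The fit shares its estimate of spread across the 3 genotypes, although libraries of bcl-11(bon144) varied most. With only the genotypes compared, these counts were 26 in bcl-11(bon144) (66.4% of all genes) and 36 in bcl-11(bon125) (86.8%). The median change of the members was -0.03 and -0.02 in the 2 mutants, and that of all genes -0.01 and 0.01.

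**Figure D3:**
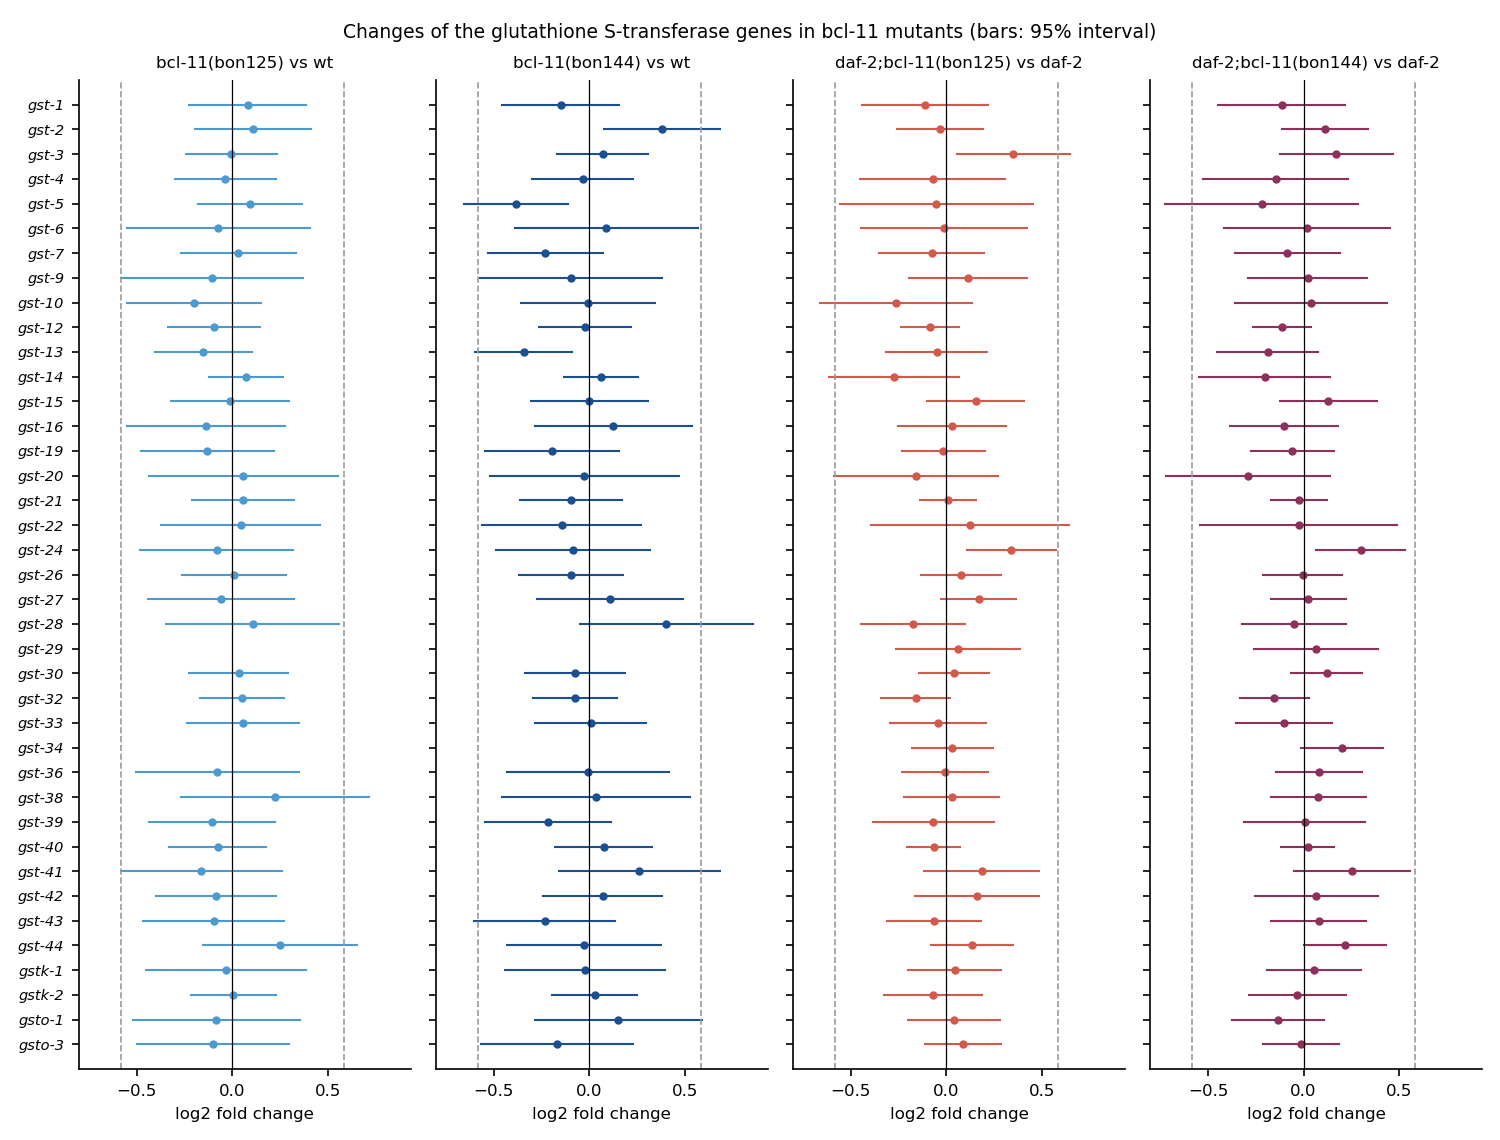
Log2 fold change (horizontal axis) of each member above the filter in the 4 comparisons of a bcl-11 mutant with its control, where points are the estimates of limma and bars their 95% intervals. Dashed lines mark a change of 1.5-fold, gst-29 and gst-34 were tested only in the daf-2 background, and no point lies beyond a dashed line.

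The 3 members with an unadjusted p under 0.05 in bcl-11(bon144) were gst-5, gst-13 and gst-2. gst-5 had an rlog of 9.11, 8.88, 9.27 and 8.90 in bcl-11(bon144), compared to 9.56, 9.21, 9.47 and 9.47 in wt. It was lower in 4 of 4 same-numbered pairs, although 1 mutant library exceeded the lowest wt library. The change was -0.38 (SE 0.13, 95% interval -0.66 to -0.11, unadjusted p = 0.00904, adjusted p of limma 0.535). gst-13 (WBGene00001761, chromosome II, 9231457 to 9232344, plus strand, protein-coding) had 11.97, 11.71, 11.78 and 12.16 in the mutant and 12.31, 12.28, 12.17 and 12.23 in wt. Every mutant library was below every wt library, by as little as 12.16 against 12.17. No other of the 37 members was without overlap, and the share of all genes was not counted. The change of gst-13 was -0.34 (SE 0.12, unadjusted p = 0.0117, adjusted p of limma 0.551). gst-2 (WBGene00001750, chromosome IV, 10140330 to 10142061, minus strand, protein-coding), a weakly expressed member, had 3.91, 4.57, 4.27 and 4.60 in the mutant and 3.81, 4.05, 4.01 and 3.95 in wt. It was higher in 4 of 4 pairs, and the change was 0.38 (SE 0.14, unadjusted p = 0.0174, adjusted p of limma 0.622).

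These values did not pass the adjusted threshold. When each replicate number was left out in turn, the change ran from -0.45 to -0.32 for gst-5, from -0.44 to -0.27 for gst-13 and from 0.29 to 0.48 for gst-2. Replicate 1 of bcl-11(bon144) had the lowest sum of germline and oocyte markers and replicate 3 the highest sum of sperm markers. Replicates 2 and 3 had the highest sums of hypodermis markers (17.22 and 17.38), which follow col-19. The part of these libraries in the 3 changes was not tested beyond leaving them out. The largest estimate was that of gst-28, 0.40 (95% interval -0.05 to 0.86, higher in 3 of 4 pairs), with an rlog of 6.53, 6.99, 6.64 and 6.43 in the mutant and of 6.00, 5.98, 6.82 and 6.17 in wt. Replicate 3 of wt lay above 3 of the 4 mutant libraries, and the estimate was 0.20 without replicate 2. gst-7 was also lower in 4 of 4 pairs, with a change of -0.23 (95% interval -0.53 to 0.07, adjusted p of limma 0.789).

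In bcl-11(bon125), 3 of 37 members differed in the same direction in all 4 pairs, beside 11.4% of all genes. gst-38 had an rlog of 7.04, 6.77, 6.72 and 6.49, compared to 6.69, 6.69, 6.56 and 6.19 in wt, and the estimate was 0.22 (95% interval -0.27 to 0.71). For gst-13 it was -0.15 (-0.41 to 0.10), and for gst-12 -0.09 (-0.34 to 0.15). All of these intervals include 0, and both alleles were compared with the same 4 wt libraries. For the SKN-1 reporter gene gst-4 the change was -0.04 in both single mutants, with intervals of -0.30 to 0.23 in bcl-11(bon125) and -0.30 to 0.23 in bcl-11(bon144), so that changes of more than 1.5-fold lie outside both.

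The 2 alleles were then compared with each other, because they alter different parts of the protein. No member of 37 was called (0.0446% of all genes), and 2 had an unadjusted p under 0.05 (5.68% of all genes). gst-5 was lower in bcl-11(bon144) than in bcl-11(bon125), where it had 9.49, 9.69, 9.34 and 9.53, and the libraries did not overlap. It was the only member of the 37 without overlap, and the share of all genes was not counted. The difference was -0.48 (SE 0.13, 95% interval -0.75 to -0.20, unadjusted p = 0.00224, adjusted p of limma 0.570). gst-41 was higher in 4 of 4 pairs, by 0.42 (SE 0.20, unadjusted p = 0.0491, adjusted p of limma 0.874). Of the 37 members, 6 differed in the same direction in all 4 pairs, beside 11.7% of all genes. The interval lay within 1.5-fold for 28 of 37 members (71.2% of all genes), and for 18 without replicate 2 and 17 without replicate 4.

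**Figure D4:**
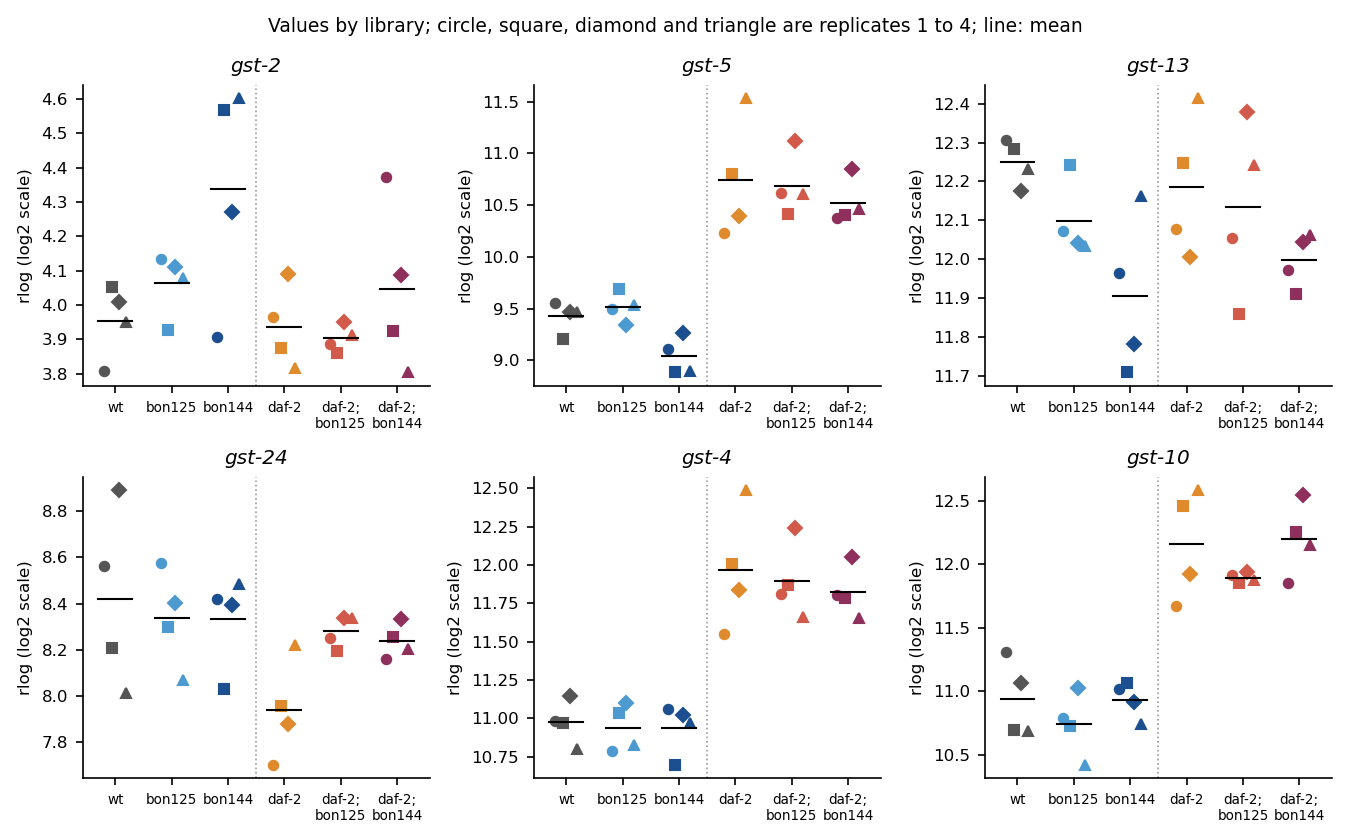
Rlog (vertical axis, log2 scale, own range in each panel) of 6 members in every library, by genotype. Symbols mark replicates 1 to 4, horizontal lines the mean of 4 libraries, and the dotted line separates the 2 tables, which were normalised separately; gst-5, gst-4 and gst-10 lie higher throughout the daf-2 table, while gst-13 does not.

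In the daf-2 background, the bcl-11 alleles were compared with daf-2. No member of 39 was called in daf-2;bcl-11(bon125) (0.0141% of all 14169 genes tested) or in daf-2;bcl-11(bon144) (0.0565%), and the smallest adjusted p was 1.00 in both. An unadjusted p under 0.05 was found for 2 members with each allele (4.11% and 3.47% of all genes). The interval lay within 1.5-fold for 34 of 39 members in daf-2;bcl-11(bon125) (90.3% of all genes) and for 37 of 39 in daf-2;bcl-11(bon144) (90.6%). The median change of the members was -0.01 and 0.01, and that of all genes 0.00 in both.

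gst-24 (WBGene00001772, chromosome II, 13610443 to 13611366, minus strand, protein-coding) had an unadjusted p under 0.05 with both alleles. Its rlog was 7.70, 7.96, 7.88 and 8.22 in daf-2, 8.25, 8.20, 8.34 and 8.34 in daf-2;bcl-11(bon125), and 8.16, 8.26, 8.33 and 8.20 in daf-2;bcl-11(bon144). Only replicate 4 of daf-2 reached the levels of the double mutants. The change was 0.34 with bon125 (SE 0.11, 95% interval 0.11 to 0.57, unadjusted p = 0.00728, higher in 4 of 4 pairs) and 0.30 with bon144 (SE 0.11, 0.07 to 0.53, unadjusted p = 0.0153, higher in 3 of 4 pairs), with an adjusted p of limma of 1.00 for each. Both comparisons use the same 4 daf-2 libraries. In the wild-type background, where gst-24 was at 8.42 ± 0.39 (SD, n = 4) in wt, its changes were -0.08 and -0.09.

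Another member reached this level with each allele. gst-3 was higher with bon125 by 0.35 (95% interval 0.05 to 0.64; 0.22 without replicate 3) and in 3 of 4 pairs, with an unadjusted p of limma of 0.0235 and an adjusted p of 1.00. gst-44 was higher with bon144 by 0.22 (0.00 to 0.43) and in 4 of 4 pairs, with an unadjusted p of limma of 0.0489 and an adjusted p of 1.00. Members that differed in the same direction in all 4 pairs without reaching this level were gst-27 (0.17), gsto-3 (0.09) and gst-32 (-0.16) with bon125, and gst-34 (0.20, and 0.13 without replicate 2) and gst-12 (-0.11) with bon144. With the members above, these were 4 and 3 of 39, beside 8.97% and 11% of all genes. The changes of gst-29, which differed most between daf-2 and wt, were 0.06 (-0.27 to 0.39) with bon125 and 0.07 (-0.26 to 0.39) with bon144. gst-4 had 11.81, 11.87, 12.24 and 11.66 in daf-2;bcl-11(bon125) and 11.80, 11.79, 12.05 and 11.65 in daf-2;bcl-11(bon144), with changes of -0.07 (-0.45 to 0.31) and -0.15 (-0.53 to 0.23). All of these libraries lay within the range of the daf-2 libraries.

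Between the double mutants, 0 of 39 members were called (0.0494% of all genes) and 0 had an unadjusted p under 0.05 (3.24%). The differences ran from -0.18 to 0.31, the latter for gst-10 (95% interval -0.09 to 0.70), and the interval lay within 1.5-fold for 36 members (91.3% of all genes). Whether an allele acted differently in the daf-2 background was tested by the difference of its changes, each taken within its own table. No member of 37 was called for bon125 (0.0% of 13131 genes) or bon144 (0.0609%), and 0 had an unadjusted p under 0.05 (3.39% and 2.72% of all genes). These estimates were less precise: the interval lay within 1.5-fold for 19 and 22 of the 37 members (53.2% and 57.4% of all genes). With a replicate number left out, these counts were 9 to 17 and 10 to 13. For gst-24 the difference was 0.42 (-0.03 to 0.87) with bon125 and 0.39 (-0.06 to 0.84) with bon144, and with a replicate number left out it ran from 0.25 to 0.54 and from 0.20 to 0.68. For gst-5 it was -0.14 (-0.73 to 0.44) and 0.17 (-0.42 to 0.75).

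Members lay unevenly above and below their genotype mean in several libraries, of daf-2 and of other genotypes. In daf-2, of the 39 members above the filter, 26 lay above their mean in replicate 4 and 30 in replicate 2, but 8 in replicate 1 and 12 in replicate 3. Over all genes the shares above the mean were 50.9%, 48.3%, 48.4% and 49.6% in these 4 libraries. Replicate 4 of daf-2 was the highest of the 4 for 19 members (27.8% of all genes), and replicate 1 the lowest for 18 (25.9%). In daf-2;bcl-11(bon144), 11, 29, 28 and 10 of 39 members lay above the mean in replicates 1 to 4. In wt, 27 of 37 did in replicate 3 (49.5% of all genes) and 13 in replicate 4 (49.9%). Replicate 3 of wt was the highest library for 18 members (29.6% of all genes). In the other 3 genotypes the counts were between 12 and 22 in every library, beside 47.6% to 53.1% of all genes.

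In daf-2, the spread was widest in gst-22 and in several strongly expressed members. gst-22 had 7.51, 8.30, 7.80 and 8.85 in daf-2, with an SD of 0.59, the largest of any member in any genotype. gst-5 had an SD of 0.58, gst-20 of 0.44, gst-6 of 0.43, gst-10 of 0.43 and gst-4 of 0.39. An SD above 0.3 was reached by 8 of 39 members in daf-2, and by 3 and 1 members in the double mutants with bon125 and bon144. Of 37 members in the wild-type background, 6 exceeded it in wt, 4 with the bon125 allele and 13 with bon144. The sum of the sperm markers was 8.26 in replicate 4 of daf-2 and 6.82 to 7.00 in the other daf-2 libraries. The intestine markers summed to 20.86 and 20.72 in replicates 2 and 4 and to 19.94 and 20.05 in replicates 1 and 3. Their sum follows vit-2 and vit-6 (mean rlog 19.26 and 19.48 in daf-2), with asp-1 next at 13.16. The mean rlog of the 7 intestine markers was 13.55 and 13.46 in replicates 2 and 4 and 12.92 and 13.01 in replicates 1 and 3. The germline and oocyte markers went the other way, with 15.49 and 15.62 in replicates 2 and 4 and 16.01 and 16.12 in replicates 1 and 3. In daf-2;bcl-11(bon144) they summed to 15.39 and 15.61 in replicates 2 and 3 and to 16.02 and 15.94 in replicates 1 and 4. The intestine markers did not split that way there, with 19.93, 20.01, 19.94 and 20.22 in replicates 1 to 4. In wt the germline and oocyte markers summed to 16.03 and 16.05 in replicates 1 and 3 and to 16.57 in replicates 2 and 4. The part of these differences in the members' values was not tested.

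**Figure D5:**
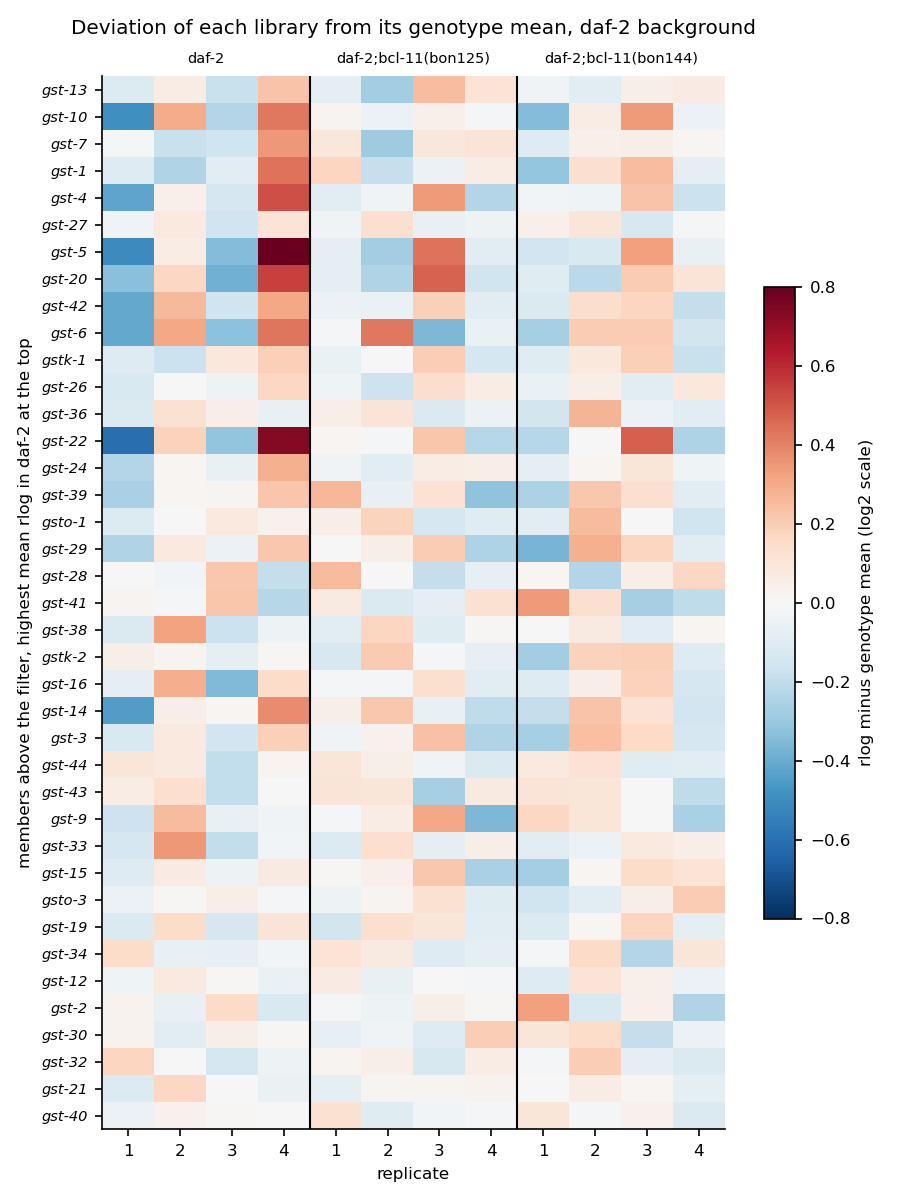
Deviation of each library from the mean of its genotype (colour, rlog on the log2 scale, red above and blue below) for the 39 members above the filter in the daf-2 background, with the highest mean at the top. Columns are replicates 1 to 4 of each genotype, and replicate 4 of daf-2 lies above the mean for 26 members and replicate 1 for 8, while in daf-2;bcl-11(bon144) replicate 2 does so for 29 and replicate 4 for 10.

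The wider glutathione pathway was examined with 6 lists. They hold the enzymes that make and reduce glutathione (8 genes, such as gcs-1, the rate-limiting ligase, and gsr-1, glutathione reductase), the glutathione peroxidases (8), the glutaredoxins (5), the ABCC transporters that export conjugates (8), the tyrosine pathway that contains gst-42 (5), and SKN-1 with its regulators (11). All listed genes were tested but 1 peroxidase gene, gpx-8, which was below the filter. In the 4 comparisons of a bcl-11 mutant with its control, 0 genes of any list were called in either direction. One list gene, gpx-7, had an unadjusted p under 0.05, in daf-2;bcl-11(bon125), where its change was 0.37. The median changes of the 6 lists ran from -0.11 to 0.12, beside -0.01 to 0.01 for all genes.

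Of the listed genes above the filter in both tables, none differed by more than 1 in either direction between daf-2 and wt. gpx-8, below the filter, was at 1.52 in wt and 0.10 in daf-2. The enzymes of glutathione synthesis and reduction ranged from -0.21 (gspd-1) to 0.05 (gss-1), with 2 of 8 higher in daf-2. gcs-1, itself a SKN-1 target, had a mean rlog of 10.14 in wt and 10.09 in daf-2. The peroxidases ranged from -0.38 (gpx-4) to 0.45 (gpx-7), the glutaredoxins from -0.48 (glrx-3) to 0.28 (glrx-10), and the transporters from -0.99 (mrp-8) to 0.53 (mrp-3). In the tyrosine pathway, gst-42 had the highest difference (0.63), and tatn-1, tyrosine aminotransferase, the lowest (-0.83). SKN-1 and its regulators ranged from -0.20 (xrep-4) to 0.65 (nsy-1), and skn-1 itself had a mean of 10.33 in wt and 10.20 in daf-2. As for the members, these values come from 2 tables and were not tested.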

How the data were processed

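Non-strand-specific full-length cDNA libraries were made from total RNA by Smart-seq2 and sequenced in paired-end mode. Base calls were converted with bcl2fastq 2.20 and transcripts of Ensembl release 109 (WBcel235) were quantified with Kallisto v048.0, per the labels and the methods of the study. The authors deposited rlog values, gene by gene and on a log2 scale, in 2 separately normalised tables of 12 libraries (19320 and 19718 genes). Kallisto divides reads among similar transcripts, so closely related members may share reads, and without strand information overlapping genes cannot be told apart. No member had the same values as another gene.

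Names, positions and transcript lengths were taken from Ensembl release 115 of the same assembly. gst-17 and gst-37 were not analysed here. Genes whose mean rlog in a table reached 3 were kept (13459 and 14169 genes, 13131 in both). For each table, limma 3.58.1 (R 4.3.3) fitted linear models with 3 genotype means to all kept genes and moderated their variances along a trend with the mean. Two-sided p-values were adjusted over all genes tested (Benjamini-Hochberg). A gene was called at an adjusted p under 0.05 and a change above 1.5-fold. The study, whose methods name no model, reported many dysregulated genes in bcl-11(bon125) against wt, where 0 were called here. In both double mutants against daf-2 it also reported more than the 2 (bon125) and 8 (bon144) called here. Differences between backgrounds were fitted with 6 means to the 13131 genes. The procedure was tested on simulated normal values with the same spread in every genotype and changes larger than the estimate of any member. That test does not show how changes as small as those of the members would be found. No p-value was computed across the tables or over the members as a set. The labels do not say whether the 4 libraries of a genotype came from separate cultures, so p-values measure the spread between these libraries.

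Libraries were paired by replicate number, although the titles do not name it as a batch. Deviations of same-numbered libraries from their genotype means correlated over genes with an r of -0.25 to 0.50, depending on the pair.

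The members and lists were chosen with earlier results of these data known. Named with values were members with an unadjusted p under 0.01 and the same direction in all 4 pairs, the 3 largest rises and falls with the same direction in all pairs in each mutant, the 5 highest and 5 lowest in daf-2 beside wt among those above the filter in both tables, the 3 highest and lowest levels in wt, and 12 members with described roles. Other members were named after their values were seen. A tissue marker name shared by several genes was left out.

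Alternatives were no filter, a mean rlog of at least 5, the replicate number as a block, only the genotypes compared, library weights, no variance trend, libraries centred on their median, and each replicate left out.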

Additional observations from a re-analysis of the deposited data

Results flagged for a closer look

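Each group of 4 libraries was searched for 1 library far from the other 3, for every member in every genotype. This held for 20 of 279 groups, and chance alone marks about 1 group in 20. Of the 20, 10 concerned members above the filter on low values, and all values are rlog. Members above the filter were 37 of 47 in the wild-type background and 39 of 46 in the daf-2 background. Their 10 groups are therefore no more than a rate of 1 in 20 would mark.

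In daf-2;bcl-11(bon125), replicate 2 stood apart for gst-7 (11.78, the other libraries 12.15 to 12.17) and for gst-27 (11.06, others 10.87 to 10.90). Replicate 3 of the same genotype stood apart for gst-42 (10.17, others 9.88 to 9.93) and gst-43 (5.30, others 5.64 to 5.67), the 2 zeta-class genes, which moved in opposite directions. Replicate 1 was lower for gst-21 (3.67, others 3.77).

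In bcl-11(bon125), gsto-1 was low in replicate 1 (5.11, others 5.56 to 5.63), gstk-1 was high in replicate 3 (8.86, others 8.33 to 8.37) and gst-22 was low in replicate 4 (7.74, others 8.25 to 8.33). In bcl-11(bon144), replicate 1 was low for gst-30 (4.22, others 4.33 to 4.35) and high for gst-36 (9.26, others 8.57 to 8.66). Replicate 1 of that genotype also had the lowest sum of germline and oocyte markers.

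The remaining 10 were members below the filter. They were gst-8 in replicate 3 of bcl-11(bon125) (0.93) and of bcl-11(bon144) (1.20), gst-11 in replicate 2 of daf-2;bcl-11(bon125) (1.29), gst-18 in replicate 2 of wt (-0.54), replicate 3 of bcl-11(bon125) (-0.47) and replicate 2 of bcl-11(bon144) (-0.51), gst-23 in replicate 2 of daf-2 (1.87), gst-25 in replicate 1 of bcl-11(bon125) (2.68), gst-31 in replicate 4 of wt (1.51), and gsto-2 in replicate 3 of wt (0.88).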

How the results depend on the processing

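No alternative changed a call. In the 8 comparisons, 0 members were called under each of the 11 alternatives. The replicate block, with libraries paired by replicate number, also gave 0 called members in each. The smallest adjusted p of limma for any member under any alternative was 0.122, for gst-2 in bcl-11(bon144) against wt with library weights. Without a filter, all 47 or 46 members were tested and 0 were called. Of 32 changes of single members followed through the alternatives, 23 kept their direction and 9, all with an interval that included 0, did not, and the cause was not tested. With a replicate left out, the change of gst-4 ran from -0.071 to 0.016 in bcl-11(bon125) and from -0.10 to 0.042 in bcl-11(bon144). In the double mutants it ran from -0.23 to 0.18 with bon125 and from -0.28 to 0.082 with bon144. That of gst-24 ran from -0.14 to 0.052 in bcl-11(bon125) and from -0.27 to 0.049 in bcl-11(bon144), and that of gst-29 from -0.025 to 0.21 and from -0.0066 to 0.17 in the double mutants with bon125 and bon144. The difference of the bon125 change between backgrounds ran from -0.48 to 0.14 for gst-5. Library weights gave 0.041 and 0.026 for gst-4 in the double mutants, 0.022 for gst-24 in bcl-11(bon125) and 0.0035 for gst-5 between backgrounds, and centring gave 0.0018 for gst-4 in bcl-11(bon125). The differences of daf-2 beside wt of the 10 members named as highest or lowest moved by less than the spread of their libraries. With a replicate left out, a difference of means cannot move by more than the larger SD. For that alternative the outcome was therefore fixed, and it says nothing about stability. The precision is set by 4 libraries for each genotype and is lowest for the differences between backgrounds (SE of 0.12 to 0.33). With a replicate left out, the members whose interval lay within 1.5-fold fell from 35 to between 24 and 32 in bcl-11(bon125) and from 30 to between 16 and 23 in bcl-11(bon144). Depth is unknown, and the compression of weak genes by rlog limits what can be said of the members near or below the filter. The scale of daf-2 beside wt depends on the separate normalisation of the tables.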
